A study of Mus musculus with 12 samples.

Results

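Gene expression in livers of Abcb4(-/-) mice fed cholic acid (CA) was compared with that in livers of Abcb4(+/+) wild-type mice on 2-colour Agilent microarrays that cover the mouse genome. The comparison was made of the arrays whose titles name CA feeding, which were 6 of the 12 arrays of the study and came from 5 knockout livers. Each array held RNA of a knockout liver and RNA of wild-type liver in different dyes. The knockout RNA was in Cy5 on arrays 1 to 3 and in Cy3 on arrays 4 to 6. The knockout mice had received CA for 9 weeks, which per the series' design text was meant to raise disease activity. The other 6 arrays held Abcb4(-/-) livers after 9 weeks of ursodeoxycholic acid (UDCA), also set against wild-type liver. The labels give the wild-type samples as Abcb4(+/+) liver only. The sources used here give neither their diet nor, for any of the mice, the sex, strain, age, dose or hour of sampling. No RNA was pooled, and in each diet group 1 liver was hybridised a second time as a dye swap. The labels do not say which arrays form that pair, so 1 pair of the 6 arrays comes from a single liver, which makes the p-values somewhat small. Every knockout liver on the CA arrays came from a mouse fed CA, so genotype and diet cannot be told apart.

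Abcb4 is the phospholipid floppase of the canalicular membrane, and the phospholipid it brings into bile shields the cells that line the bile ducts from bile salts. Without it bile is toxic to the small ducts, and mice develop inflammation and scarring around the ducts that is used as a model of sclerosing cholangitis. Cholic acid is a primary bile acid that enlarges the bile salt pool. In injured liver, ducts multiply, monocytes enter and hepatocytes turn down parts of their specialised metabolism.

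A signed value is the log2 of the knockout signal divided by the wild-type signal of its array, so that 1 means a doubling, and the error shown after ± is the standard error from limma. A gene was called when its Benjamini-Hochberg adjusted p in limma, over all tested probes, was under 0.05, and "rose" and "fell" are used of called genes only. Gene groups are described by counts and medians and carry no test of their own. In whole tissue, fewer cells of a type and less RNA per cell cannot be told apart.

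The tissue markers were those of liver. Albumin (Alb), Apoa1, Trf, Ahsg, Fgb and Ttr were well above background in both RNAs on all 6 arrays. Except for Ttr, most of their spots were saturated in one dye, so that the ratio followed the dye. Ttr was saturated in the wild type on 2 arrays. It read -0.19, 0.21, -0.69, -0.43, -0.86 and -0.71 on arrays 1 to 6 and fell (-0.44 ± 0.13, adjusted p = 0.00868). Alb read 2.43, 1.90, 3.35, -3.01, -2.84 and -3.93 on arrays 1 to 6. Genes that bright carry little information on the ratio, and the fit's dye term left Alb at -0.35 ± 0.37 (adjusted p = 0.432). The brighter probe of Abcb4 itself, A_51_P249118, read 0.11, -0.45, -0.57, -0.71, -1.33 and -1.42 on arrays 1 to 6, with a fitted ratio of -0.73 ± 0.21 (adjusted p = 0.00699). It was lower in the knockout on 5 of 6 arrays and was saturated in the wild type on 3. The second probe, A_52_P223194, had a ratio of -2.73 ± 0.21 (adjusted p = 4.32e-08). Whether the deletion covers the site of these probes is not stated in the sources used here, so the remaining signal checks nothing. Median intensity per CA array was 375 to 1296 in green and 59.2 to 158 in red, and 2.66% to 5.97% of spots were saturated in green. The log2 ratios of array pairs correlated across genes with r between 0.54 and 0.882. Precision is set by the small number of arrays.

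Arrays 3 and 4, which shared a slide, stood apart from the others in the RNA of pancreatic enzymes. Syncollin (Sycn), a protein of the zymogen granule, had log2 intensities in the wild type of 7.60, 7.65, 14.45, 13.14, 7.51 and 7.66 on arrays 1 to 6. In the knockout they were 7.52, 7.41, 10.86, 8.97, 7.50 and 7.59. The wild-type level was thus high on arrays 3 and 4 and near the level of dim spots on the rest, and the knockout level was raised on the same arrays by less. The elastase gene Cela1 (12.49 and 11.61 in the wild type on arrays 3 and 4, 7.14 to 7.83 on the others) and the lipase gene Cel (14.43 and 14.81, against 7.33 to 8.41) followed the same course. All 5 measured members of the pancreas list were called lower, against 22.2% of all genes, with a median of -1.30. Cela1 and Sycn were not called without array 3 (-0.75 and -0.87) or without array 4 (-0.75 and -0.73). The median of the list was -0.81 without array 3, -0.86 without array 4, and -0.44 without both, when 3 were called. Arrays 3 and 4 also had the highest residual correlation of the 9 possible dye-swap pairs, 0.109. Without both of them 4615 genes were higher and 2321 lower in all. Among genes named here Cela1 (-0.05), Ctrb1 (-0.27) and Sycn (-0.10) and, outside the pancreas, Gsta2 (1.0), Lipe (-0.34), Ogdh (-0.40), Pigr (-0.78), Timd4 (-0.40) and Tk1 (-0.49) were then no longer called. The part of pancreatic tissue in other genes' ratios was not tested.

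**Figure D1:**
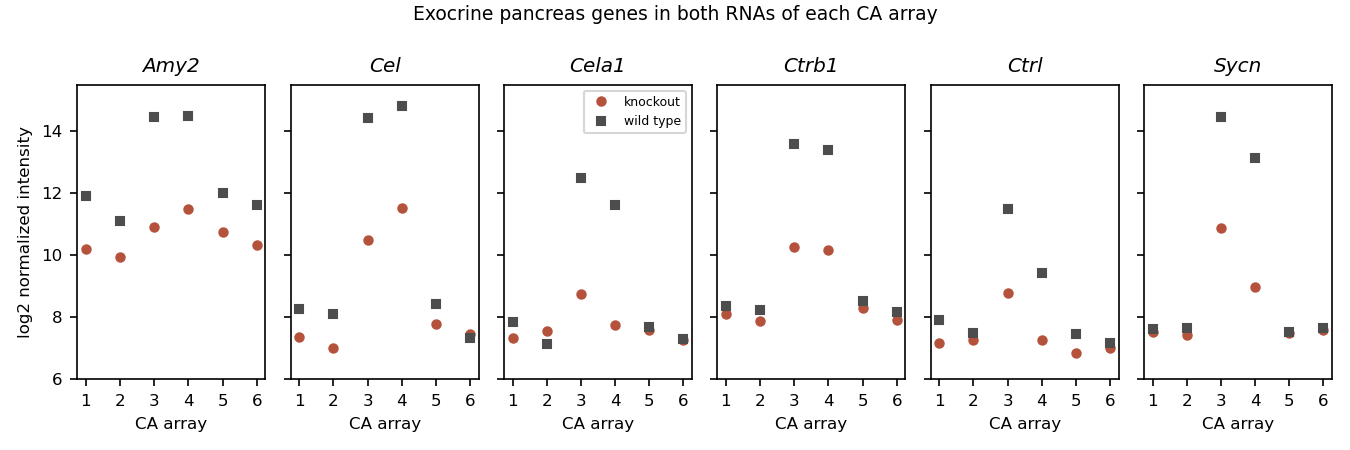
Log2 intensity (arbitrary units) of pancreatic enzyme genes in knockout and wild-type RNA on each of the 6 CA arrays. The wild-type points of arrays 3 and 4 lie far above those of the other arrays, for Sycn at 14.45 and 13.14 against 7.51 to 7.66, and the knockout points of the same arrays are raised by less.

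Most of the measured genes differed from wild type. Of 12384 genes with a current symbol, 4908 rose (39.6%) and 2744 fell (22.2%), together 61.8%. Among these, 1824 rose and 577 fell at least 2-fold, and 5471 had one sign on 6 of 6 arrays. Rises made up 64.1% of the calls, and 86.5% when each array was centred on its median instead of normalised by loess. Their share was 59.8% with Agilent's own log ratios and 55.1% with the deposited series values. With a stricter filter on dim probes it was 57.5%, from 3472 genes higher and 2569 lower. The median over all genes was 0.12, and 0.34 after median centring. Counts for gene groups are to be read against these shares. For 377 genes the wild type was not well above background on any of the 6 arrays, and for 6 genes the knockout was not. Their ratios are given as "at least" values, from the bright RNA's mean against the lowest signal that counts as well above background or the dim probe's own, whichever is higher.

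Below the largest changes, the genes ranked 11 to 30 among rises with one sign on all arrays came from epithelial, myeloid and matrix genes. Tmem45a, a membrane protein gene of epithelia, led them and read 4.28, 4.26, 3.96, 2.79, 4.12 and 3.20 on arrays 1 to 6 (3.77 ± 0.25, adjusted p = 9.64e-09). The organic anion carrier gene Slco3a1 read 4.10, 3.92, 4.32, 2.32, 4.51 and 3.35 (3.75 ± 0.28). Both were above wild type on every array, and both were saturated in the knockout on the 3 arrays where it was in Cy3, so those ratios are low estimates. Ch25h, which makes 25-hydroxycholesterol, read 4.30, 4.02, 4.23, 2.28, 3.47 and 2.37 (3.45 ± 0.39, adjusted p = 2.62e-06). Others were the mitochondrial ATP and phosphate carrier gene Slc25a24 (3.73), the macrophage membrane protein gene Ms4a7 (3.69), the epithelial gene Plet1 (3.66), the activating myeloid receptor gene Clec5a (3.56), the basement membrane gene Nid1 (3.45) and Sftpd (3.45), a collectin known from the lung. Casp12 (3.60), Fstl1 (3.57), S100a4 (3.54), S100a6 (3.46) and Serpinb6b (3.46) appear with their families.

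The falls ranked 11 to 30 were mainly genes of hepatocyte metabolism and transport. The giant adhesion receptor gene Adgrv1 read -3.69, -3.34, -3.47, -2.63, -4.06 and -3.51 on arrays 1 to 6 (-3.45 ± 0.16, adjusted p = 5.67e-10). The sulfotransferase gene Sult5a1 read -3.42, -3.09, -3.07, -3.06, -2.99 and -3.02 (-3.11 ± 0.14, adjusted p = 5.54e-10). Both were far below wild type on every array. Mfsd2a (-2.92), a carrier of lysophospholipids, the glutamate carrier Slc1a2 (-2.89), the fructose carrier Slc2a5 (-2.76) and the sodium channel subunit Scnn1a (-2.61) fell. So did the fatty acid elongase Elovl3 (-2.75), the fatty acid hydroxylase Cyp4a31 (-2.75), the steroid and retinol dehydrogenase family members Sdr9c7 (-2.72) and Rdh16f2 (-2.65), Cyp2c38 (-3.06) and Cyp7b1 (-2.78). Csrp3 (-3.12), known as a protein of striated muscle, Dct, known from melanin synthesis, which was not well above background in the knockout and at least 7.06-fold lower, and the unnamed gene 1810008I18Rik (-3.37) stood among them.

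**Figure D2:**
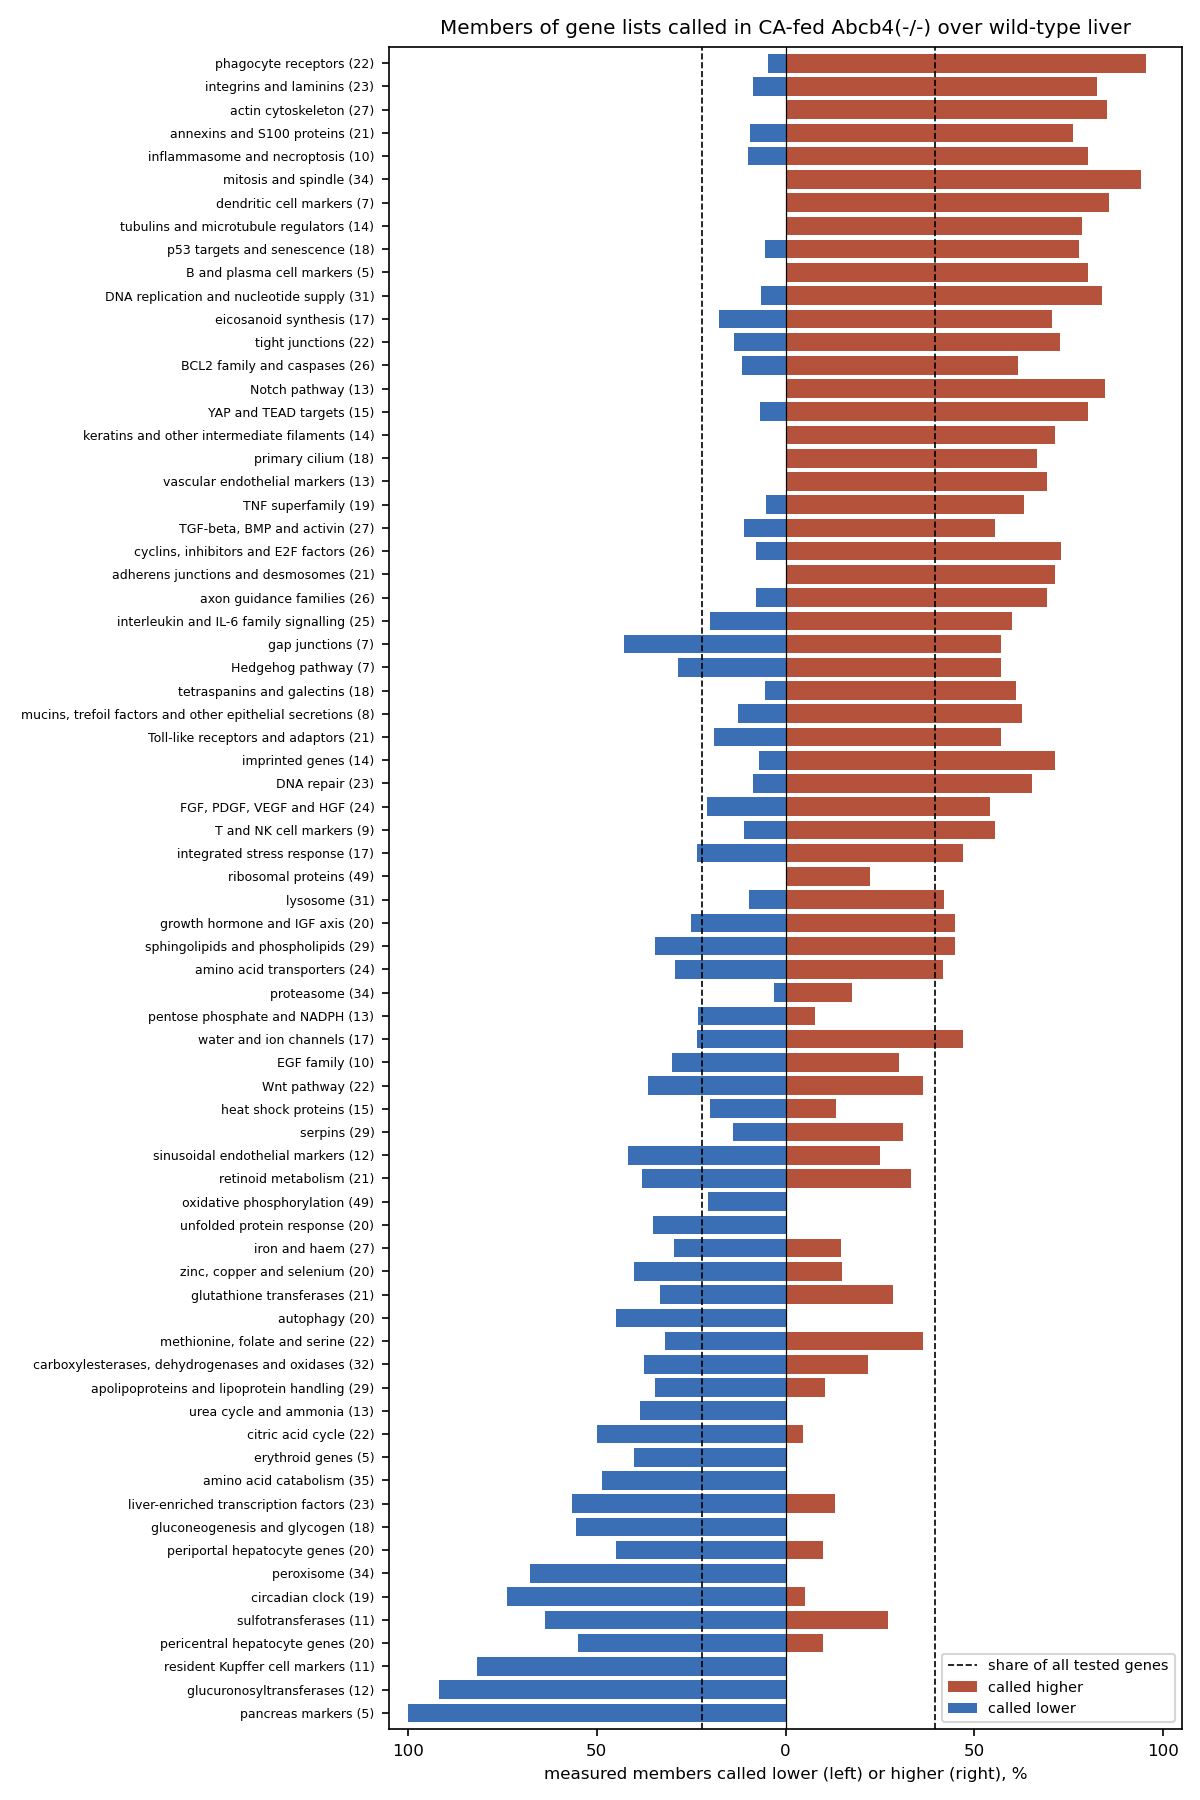
Share of measured members called higher (bars to the right) and lower (bars to the left), in percent, for each gene list with at least 5 measured members in CA-fed knockout against wild-type liver, with dashed lines at the shares over all genes, 39.6% higher and 22.2% lower. Lists are ordered by median log2 ratio, with phagocyte receptors, integrins and laminins and the actin cytoskeleton near one end and glucuronosyltransferases and Kupffer cell markers near the other.

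Genes that seal epithelia were higher in CA-fed knockout liver. Of 22 tight junction genes 16 rose and 3 fell, with a median of 0.80. Claudin-7 (Cldn7), a claudin of simple epithelia, read 2.99, 3.33, 2.41, 1.60, 3.16 and 2.47 on arrays 1 to 6 (2.66 ± 0.26, adjusted p = 4.85e-07). Cldn6 (1.91), known from fetal epithelia, Cldn4 (1.77) and the junction membrane protein gene Marveld3 (2.07) rose as well. Cldn12 (-1.08) and the polarity gene Pard3 (-1.23, with other probes at -0.49, -0.55 and, in the opposite direction, 0.79) were among the members that fell, and Cldn1, the main claudin of hepatocytes, was at -0.07 ± 0.14 (adjusted p = 0.698). In adherens junctions and desmosomes 15 of 21 rose and 0 fell (median 0.57). E-cadherin (Cdh1) read 2.30, 1.59, 2.31, 1.72, 2.31 and 1.99, above wild type on every array (2.04 ± 0.11, adjusted p = 1.92e-09). The desmosomal cadherin Dsg2 (1.94) and the plakins envoplakin (Evpl, 2.01) and periplakin (Ppl, 1.70) rose, while N-cadherin (Cdh2), which hepatocytes also carry, was at 0.20 ± 0.12 (adjusted p = 0.158).

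Of 7 gap junction genes 4 rose and 3 fell. Connexin 32 (Gjb1), the main gap junction protein of hepatocytes, read -1.27, -1.42, -2.83, -2.45, -0.75 and -1.01 on arrays 1 to 6 (-1.62 ± 0.26, adjusted p = 7.82e-05), below wild type throughout. Pannexin 1 (Panx1), which forms channels that release ATP, read 2.25, 2.42, 2.07, 1.51, 2.83 and 1.96 (2.17 ± 0.17, adjusted p = 5.36e-08). Connexin 43 (Gja1, 1.41), a connexin of many non-hepatocyte cells, and connexin 45 (Gjc1, 1.25) rose too. With a stricter filter on dim probes 5 of these genes were left, 2 higher and 3 lower.

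Most cytoskeletal genes were higher too. Of 14 keratin and other intermediate filament genes 10 rose and 0 fell (median 0.71, and 0.68 with dim genes at their bounds). Krt23 (3.28) and the mesenchymal filament gene Vim (2.88) led, both saturated in the knockout on the 3 arrays where it was in Cy3, followed by Krt19 (2.76) and Krt7 (1.97) of bile duct cells. Krt8, which hepatocytes express too, rose by 0.75, but its ratio followed the dye. It read 2.43, 1.90 and 2.47 on arrays 1 to 3 and -0.71 and -0.73 on arrays 5 and 6. The probe was saturated in the wild type on 3 arrays and in the knockout on 5, and the other probe was at 0.96. Among 27 actin cytoskeleton genes 23 rose and 0 fell (median 1.33). Tmsb10, which binds actin monomers, read 3.29, 3.44, 2.45, 2.31, 3.33 and 2.50 on arrays 1 to 6 (2.89 ± 0.15, adjusted p = 1.1e-09). Coro1a (2.30) of leukocytes, Tmsb4x (2.28), Cnn2 (2.23), Actb (1.16) and the smooth muscle actin gene Acta2 (1.38) rose.

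Of 14 tubulins and microtubule regulators 11 rose and 0 fell (median 1.08). Tuba1a read 3.71, 3.27, 3.64, 2.11, 3.86 and 3.18 (3.30 ± 0.19), with knockout spots saturated on the 3 arrays with the knockout in Cy3. The microtubule destabiliser Stmn1 (2.96), Tubb2b (2.30) and Tubb6 (2.14, its other probe lower at -1.08) rose, as did Tuba1b (0.75). Near-identical tubulin genes may share probes, so the values of single members are uncertain.

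Annexins, which bind membranes when calcium rises, and the small calcium-binding S100 proteins were higher as families, with 16 of 21 up and 2 down (median 1.27). Anxa13, an annexin of epithelia, read 3.11, 3.22, 3.00, 2.31, 3.80 and 2.61 on arrays 1 to 6 (3.01 ± 0.26, adjusted p = 1.7e-07), a rise on every array. Anxa3 (4.29), S100a4 (3.54), S100a6 (3.46), Anxa2 (2.58) and Anxa1 (2.26) rose, and so did S100a8 (1.27) and S100a9 (1.53), the paired calgranulins of neutrophils and monocytes.

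Cells hold to the basement membrane through integrins, whose main ligands there are the laminins. Of 23 measured members 19 rose and 2 fell (median 1.55). Integrin alpha 8 (Itga8), a receptor of contractile and stellate cells, read 3.58, 2.78, 3.55, 2.44, 3.47 and 2.86 on arrays 1 to 6 (3.11 ± 0.19, adjusted p = 5.58e-09). Integrin alpha 6 (Itga6, 2.68) and Itga3 (1.39), which bind laminins on epithelial cells, rose, as did the laminin chain Lama5 (2.58). The laminin chain Lama3 was the exception among the laminins, at -1.04 ± 0.17. Among tetraspanins and galectins 11 of 18 rose and 1 fell. The galectins Lgals1 (3.15) and Lgals3 (2.40), which bind sugars on cell surfaces, and the tetraspanins Tspan3 (3.05) and Cd9 (2.98) had the largest rises.

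Genes of epithelial secretion and of cilia were mostly higher. Of 18 mucins, trefoil factors and other products of mucous epithelium 8 were measured, of which 5 rose. Among these were the protease inhibitors Wfdc2 (2.45) and Slpi (2.01) and the trefoil factor Tff2 (1.18). Wfdc2 had values on arrays 2, 5 and 6 only. Slpi read 2.97, 3.15 and 3.47 on arrays 1 to 3 and 0.05, 1.35 and 1.05 on arrays 4 to 6. Both inhibitors were saturated in the knockout on 3 arrays. The polymeric immunoglobulin receptor Pigr, which carries IgA into bile, was the single member that fell (-0.99 ± 0.28). Cholangiocytes carry a primary cilium and hepatocytes do not. Of 18 cilium genes, some of them known from motile cilia, 12 rose and 0 fell (median 0.69). Polycystin-2 (Pkd2), a channel of the cilium, read 3.53, 2.98, 3.68, 2.09, 3.08 and 2.23 on arrays 1 to 6 (2.93 ± 0.18, adjusted p = 6.18e-09). The fibrocystin gene Pkhd1 (3.48), the intraflagellar transport gene Ift57 (2.71) and Foxj1 (2.60), a transcription factor of motile cilia, rose.

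Water and ion channels went both ways. The chloride channel gene Cftr, through which cholangiocytes secrete fluid, was not well above background in wild type and was at least 7.68-fold higher in the knockout (adjusted p = 3.45e-08). The potassium channels Kcnk1 (1.67) and Kcnn4 (1.59) rose. The aquaporins Aqp11 (-1.84), Aqp9 (-1.15), the glycerol channel of hepatocytes, and Aqp4 (-1.06) fell, and Aqp1, the water channel of ducts and vessels, was at -0.07 ± 0.12 (adjusted p = 0.656). In all 8 of 17 rose and 4 fell.

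**Figure D3:**
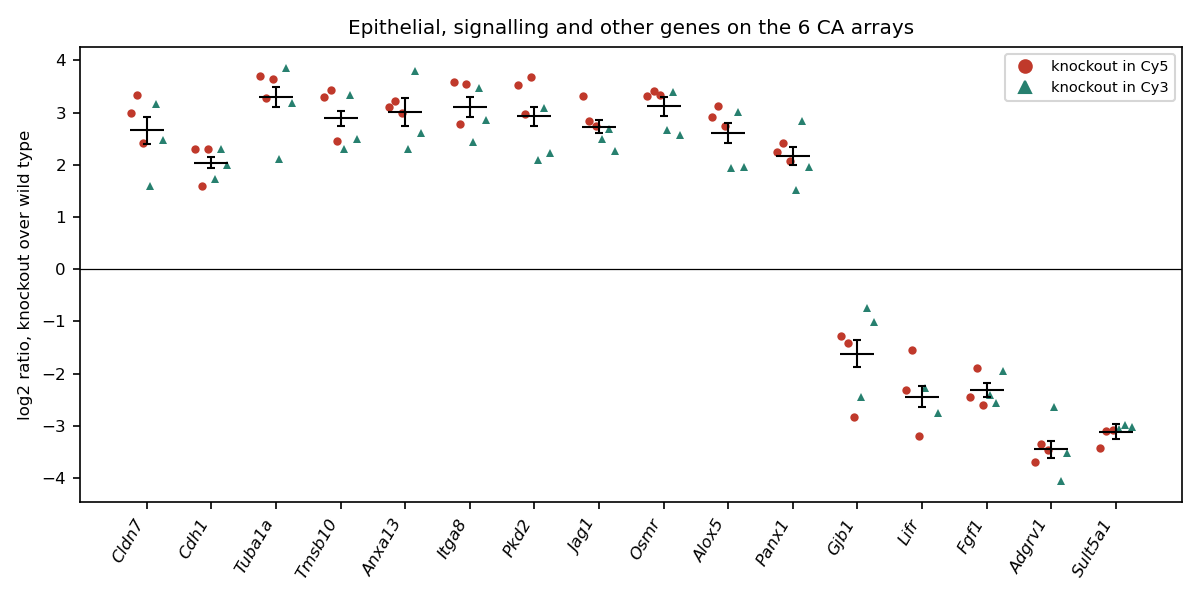
Log2 ratio of knockout over wild type (vertical axis) of 16 genes on each CA array, with circles for arrays with the knockout in Cy5, triangles for Cy3, and a black bar with standard error for the fitted ratio. Genes such as Cldn7, Cdh1 and Itga8 lie above 0 on 6 of 6 arrays, and Gjb1, Fgf1, Lifr and Sult5a1 lie below it on every array with a value.

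Genes of the Notch and Hippo pathways were higher. Notch signalling drives the biliary fate of liver progenitors. Of 13 Notch pathway genes 11 rose and 0 fell (median 0.77). The ligand Jag1, whose human gene is mutated in a disease with too few bile ducts, read 3.31, 2.83, 2.75, 2.50, 2.69 and 2.27 on arrays 1 to 6 (2.73 ± 0.12, adjusted p = 5.54e-10). The target genes Heyl (1.58) and Hes1 (1.03) and the receptor Notch2 (0.72) rose, while the receptor Notch1 was at -0.08 ± 0.14 (adjusted p = 0.638). In the YAP and TEAD list, which reads out the Hippo pathway of growth control, 12 of 15 rose and 1 fell. Ccn2 (3.54), Ankrd1 (3.32), Crim1 (2.32), Tead2 (2.19) and Ccn1 (2.09) rose, and the RNA of Yap1 itself fell (-0.59 ± 0.13).

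Of 27 genes of TGF-beta, BMP and activin signalling 15 rose and 3 fell. The ligands Tgfb3 (2.94), Tgfb2 (1.65) and Tgfb1 (0.78), the receptor Tgfbr2 (2.16), the latency protein Ltbp3 (2.45) and the secreted regulator Fstl1 (3.57) rose. The activin chains Inhbc (-1.14) and Inhbe (-0.99), which hepatocytes make, fell. Wnt pathway genes were even, 8 of 22 up and 8 down, and after median centring 8 were up and 2 down. The receptors Fzd1 (2.09) and Fzd6 (1.42) and the secreted modulators Dkk3 (2.00) and Sfrp1 (1.49) rose, whereas the R-spondin receptors Lgr5 (-0.85) and Lgr4 (-0.97) and the endothelial ligand Wnt2 (-0.56) fell. In the Hedgehog list 4 of 7 rose and 2 fell. The transducer Smo (1.56) and the transcription factor Gli3 (0.67) rose and the receptor Ptch1 (-0.53) fell.

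Growth factors for mesenchymal cells rose. Of 24 FGF, PDGF, VEGF and HGF genes 13 rose and 5 fell. The PDGF ligands Pdgfc (2.50) and Pdgfb (2.49) rose together with both PDGF receptors, Pdgfrb (3.00) and Pdgfra (2.89). Fgf1, a growth factor made by hepatocytes, went the other way and read -2.45, -1.90, -2.60, -2.41, -2.57 and -1.94 on arrays 1 to 6 (-2.31 ± 0.14, adjusted p = 3.67e-09). Its other probe also fell, by 1.26. The co-receptor Nrp1 (-1.25) fell. In the EGF family 3 of 10 rose and 3 fell. The ligands Hbegf (1.52) and betacellulin (Btc, 1.49) and the receptor Erbb2 (0.99) rose, and Erbb3 (-0.58), the receptor that signals with Erbb2, was among those that fell. The median of this family was -0.02 and became 0.21 after median centring.

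Genes first known from axon guidance were higher in 18 of 26 cases and lower in 2 (median 0.56). The netrin receptor Unc5b (2.56), the Slit receptor Robo1 (1.89), the ephrin ligand Efnb2 (1.74) and the semaphorins Sema3b (1.30) and Sema3c (0.82) rose.

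Eicosanoids are signalling lipids cut from membrane phospholipid, and 12 of 17 genes of their synthesis rose while 3 fell. The leukotriene enzyme Alox5 read 2.92, 3.12, 2.74, 1.93, 3.02 and 1.95 on arrays 1 to 6 (2.61 ± 0.20, adjusted p = 4.67e-08). Its partner Alox5ap (2.30), the phospholipase Pla2g4a (1.90) and thromboxane synthase (Tbxas1, 1.82) rose, and Hpgd, which inactivates prostaglandins, fell (-1.21 ± 0.11).

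Receptors of the IL-6 family moved in opposite directions. Osmr, the receptor chain for oncostatin M, read 3.32, 3.41, 3.34, 2.67, 3.40 and 2.58 on arrays 1 to 6 (3.12 ± 0.18, adjusted p = 3.12e-09), and its other probe was at 0.82. Lifr, the chain for leukaemia inhibitory factor that uses the same partner, read -2.31, -1.54, -3.20, -2.28 and -2.76 on arrays 1 to 4 and 6 (-2.44 ± 0.20, adjusted p = 1.55e-07) and had no value on array 5, and its 3 other probes were between -1.31 and -0.59. Every array with a value thus had more Osmr and less Lifr RNA than wild type. Of 25 interleukin and IL-6 family genes 15 rose and 5 fell. The receptor chain Il10rb (2.57) and Il1b (0.87) rose, the IL-1 receptor accessory chain Il1rap fell (-1.90), and Il1a was at -0.07 ± 0.11 (adjusted p = 0.565). In the TNF superfamily 12 of 19 rose and 1 fell. The B cell factor Tnfsf13b (2.04), the TWEAK receptor Tnfrsf12a (1.85), a receptor of duct and progenitor cells, Tnf (0.88) and Ltb (1.62) rose, and the decoy receptor Tnfrsf11b fell (-1.07). Of 21 Toll-like receptors and adaptors 12 rose and 4 fell, with Tlr2 (3.11), Tlr1 (1.66) and Tlr7 (1.54) higher and Tlr9 (-0.93) and Tlr5 (-0.66) lower.

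Phagocyte receptor genes were mostly higher and markers of resident Kupffer cells mostly lower. Some of the receptors, such as the F4/80 antigen, are also carried by Kupffer cells, and the origin of the cells was not tested. Of 22 phagocyte receptor genes 21 rose and 1 fell, with a median of 1.94 and array medians of 2.16, 2.29, 1.86, 1.34, 1.97 and 1.55 on arrays 1 to 6. The F4/80 antigen gene Adgre1 (2.61) and the IgG receptor Fcgr1 (2.32) rose with Clec7a (4.31), Ccr2 (4.15) and Trem2 (3.71), and the efferocytosis receptor Mertk fell (-0.62 ± 0.09). Of 11 Kupffer cell markers 0 rose and 9 fell (median -1.05), with array medians of -0.86, -0.79, -1.47, -1.13, -1.68 and -1.10. Clec4f, a lectin restricted to Kupffer cells, read -2.91, -2.53, -4.12, -4.36, -3.41 and -2.89 on arrays 1 to 6 (-3.37 ± 0.24), and the scavenger receptor Marco read -2.30, -1.96, -2.24, -2.28, -2.83 and -2.11 (-2.29 ± 0.16, adjusted p = 1.23e-08). On every array both were below wild type. Timd4, which marks Kupffer cells of embryonic origin, fell less (-0.52 ± 0.15, adjusted p = 0.00636).

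**Figure D4:**
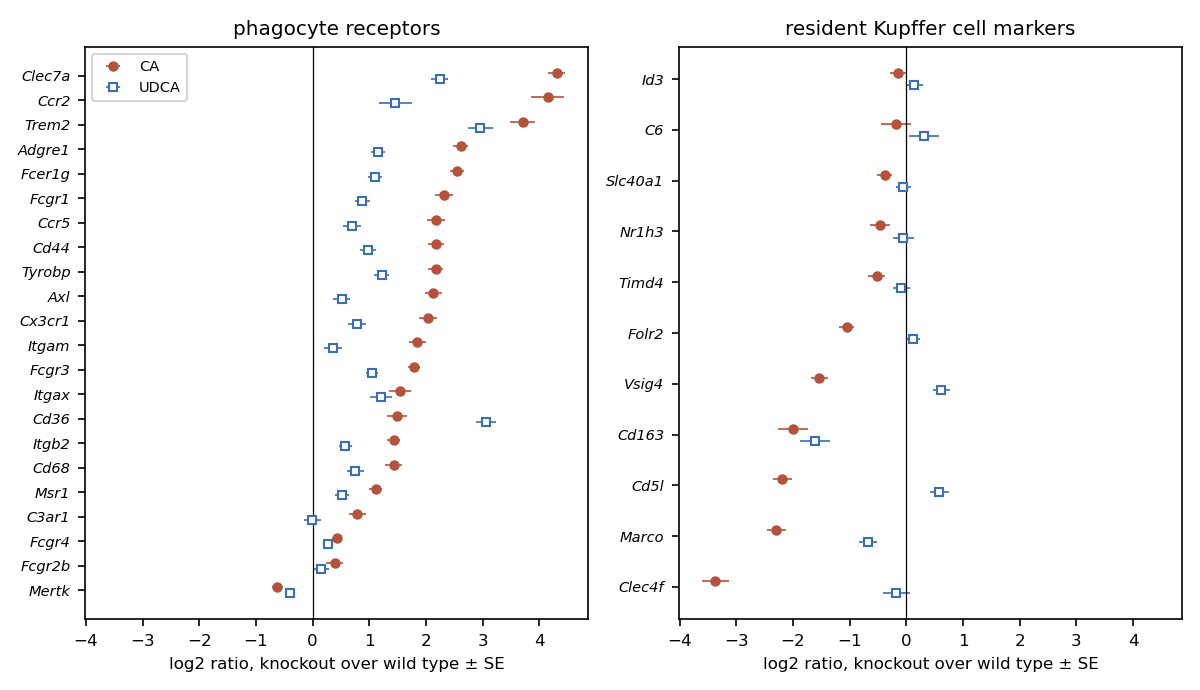
Log2 ratio of knockout over wild type (horizontal axis, bars are standard errors) of every measured phagocyte receptor and Kupffer cell marker, circles for CA and open squares for UDCA. With CA the phagocyte receptors were called higher in 21 of 22 cases and the Kupffer cell markers lower in 9 of 11.

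Other immune lists had fewer measured members. Dendritic cell genes rose in 6 of 7 cases (median 1.17) and genes of the neutrophil list in 3 of 4 (median 1.40). The neutrophil list held 13 genes, of which 4 were measured. Those that rose were Lcn2 (2.23) and S100a9 and S100a8, which monocytes also make. The receptor gene Csf3r was not called (-0.31 ± 0.14, adjusted p = 0.0693), so a rise of neutrophils is not shown. The dendritic cell list was led by Cd83, a marker of mature cells, which read 3.35, 3.05, 2.76, 2.41, 2.85 and 2.39 on arrays 1 to 6 (2.80 ± 0.15). The lectin Clec10a (2.65), the transcription factor Irf8 (1.96) and Itgae (1.17) rose, and Zbtb46 was at -0.13 ± 0.11 (adjusted p = 0.299). In the T and NK cell list 5 of 9 rose and 1 fell. Lck (1.06) and Cd3g (0.80) rose but Cd3e fell (-0.32) and Cd3d was at 0.17 ± 0.11, so the chains of one receptor complex did not move together. Of 5 B and plasma cell genes 4 rose, among them Jchain (1.36), Cd79b (0.85) and Sdc1 (0.66). Of 3 mast cell and eosinophil genes measured, Siglecf (1.0) rose.

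Sinusoidal endothelial markers gave 3 rises and 5 falls in 12, and 2 and 1 after median centring. The scavenger receptor Stab1 (1.23) and the mannose receptor Mrc1 (0.71), both also genes of macrophages, rose, and Dnase1l3 (-1.32), Oit3 (-0.97) and Gpr182 (-0.86) fell. Of 13 general vascular genes 9 rose and 0 fell. Endomucin (Emcn, 1.34), the clotting factor carrier Vwf (1.03) and the apelin receptor Aplnr (0.83) rose, and Pecam1 was at 0.06 ± 0.10 (adjusted p = 0.605). Of 5 erythroid genes 0 rose and 2 fell, Klf1 (-1.48) and Alas2 (-1.27). Of the other tissues that the sample could hold, the fat cell genes Fabp4 (1.69), also a macrophage gene, and Pparg (0.72) rose and Lipe fell (-0.43), and the muscle gene Atp2a1 fell (-0.76). The part of these cell types in the changes above was not tested.

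The unfolded protein response and the integrated stress response differed in their counts. In the unfolded protein response, which answers to misfolded protein in the endoplasmic reticulum, 0 of 20 genes rose and 7 fell (median -0.21). Of these 20 genes 9 were saturated in wild type on 3 or more arrays, against 2 of 17 in the integrated stress response. Further changes could therefore be missed. The sensors Ern1 (-0.66) and Atf6 (-0.48), the degradation adaptor Sel1l (-1.08) and the chaperone Hyou1 (-0.79) fell, and the main chaperone Hspa5 was at -0.03 ± 0.21 (adjusted p = 0.907). In the integrated stress response 8 of 17 rose and 4 fell (median 0.31). Nupr1 (1.80), Ddit4 (1.74), Atf3 (1.20) and asparagine synthetase (Asns, 0.98) rose, but the central factor Atf4 (-0.59) and its target Chac1 (-0.96) fell.

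Among heat shock genes the median of -0.06 became 0.11 with Agilent's own log ratios, and single members went far in either direction. The inducible chaperone Hspa1a read -3.36, -1.88, -2.23, -2.53, -2.18 and -1.21 on arrays 1 to 6 (-2.23 ± 0.23, adjusted p = 8.44e-07), and its 3 other probes gave -2.37, -2.29 and -1.68. It has a near-identical copy, Hspa1b, from which probes may not tell it apart. Hspb1 (1.58) and Hspa2 (1.58) rose.

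Genes of p53 and of cell death were higher. Of 18 p53 targets and senescence genes 14 rose and 1 fell (median 0.92). Phlda3, which restrains Akt, read 2.72, 3.03, 2.32, 1.92, 2.74 and 2.03 on arrays 1 to 6 (2.46 ± 0.16, adjusted p = 6.57e-09). Pmaip1 (2.59), a killer protein of mitochondria, the kinase inhibitors Cdkn2b (2.03) and Cdkn1a (1.84) and the p53 ligase Mdm2 (0.96, another probe lower at -0.48) rose, and the kinase Plk3 fell (-1.08). In the BCL2 family and caspases 16 of 26 rose and 3 fell. Casp12 (3.60) and Casp4 (3.40), inflammatory caspases, rose most, and both the survival gene Bcl2 (2.43) and the killer gene Bok (2.02) rose, while Bad (-0.66) fell. Of 10 inflammasome and necroptosis genes 8 rose and 1 fell (median 1.20), among them the adaptor Pycard (1.84), Casp1 (1.60) and the necroptosis effector Mlkl (1.59).

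Of 31 lysosomal genes 13 rose and 3 fell (median 0.24), a share of rises near the 39.6% over all genes. Cathepsin S (Ctss, 2.75), cathepsin K (Ctsk, 1.72) and the hydrolase Hexa (1.78) rose, and the cholesterol exporter of lysosomes Npc1 (-0.98) and the proton pump subunit Atp6v1h (-0.37) fell. In autophagy 0 of 20 rose and 9 fell (median -0.31), including Atg7 (-0.60), Wipi2 (-0.63) and Uvrag (-0.49). Of 34 proteasome genes 6 rose and 1 fell, and 5 rose and 8 fell with the deposited series values. The subunits of the immunoproteasome, which serves antigen presentation, Psmb8 (1.19) and Psmb9 (0.79) had the largest rises.

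Ribosomal protein genes were too bright to be read well. Their median was 0.29, but the array medians were 1.68, 1.28, 1.39, -0.78, -0.61 and -1.28 on arrays 1 to 6, positive where the knockout was in Cy5 and negative where it was in Cy3. In all 11 of 49 were called higher and 0 lower. In oxidative phosphorylation 0 of 49 rose and 10 fell (median -0.20), including the complex I gene Ndufb5 (-0.91). That is 20.4% lower, near the 22.2% over all genes. Of these genes 27 were saturated in wild type on 3 or more arrays, so this list too was hard to read. In the citric acid cycle and its neighbours 1 of 22 rose and 11 fell. The NADPH-making enzymes Me1 (-1.55) and cytosolic Idh1 (-1.46) fell while mitochondrial Idh2 rose (0.59), and the entry enzyme Dlat (-0.78) and Ogdh (-0.68) fell.

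Genes of DNA replication and of mitosis rose together. The promoters below are those of members with large rises whose sequence holds the motif of the factors known to drive their phase of the cell cycle. They are printed 5′ to 3′ along the gene's strand from 250 bases before to 50 bases after the RefSeq start on GRCm38.p6, with motifs on either strand in capitals. E2F factors drive genes of the S phase, and the capitals mark TTTGGCGC or TTTCCCGC in the helicase genes Mcm6 (chr1:128359656-128359955, minus strand) and Mcm3 (chr1:20820263-20820562, minus strand).
Mcm6: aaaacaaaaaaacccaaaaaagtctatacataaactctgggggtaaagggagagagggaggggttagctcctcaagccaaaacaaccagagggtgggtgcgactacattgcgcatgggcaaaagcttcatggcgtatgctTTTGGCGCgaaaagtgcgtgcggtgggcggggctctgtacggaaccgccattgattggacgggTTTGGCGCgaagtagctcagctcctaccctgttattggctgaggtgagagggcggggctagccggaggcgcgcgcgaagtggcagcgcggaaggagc
Mcm3: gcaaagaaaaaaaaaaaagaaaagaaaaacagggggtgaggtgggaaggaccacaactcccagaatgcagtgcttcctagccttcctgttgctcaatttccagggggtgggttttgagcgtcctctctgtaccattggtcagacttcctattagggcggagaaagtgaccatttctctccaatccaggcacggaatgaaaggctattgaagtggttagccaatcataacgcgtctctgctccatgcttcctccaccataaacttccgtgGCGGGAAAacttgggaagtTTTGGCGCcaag
Genes of mitosis are known for CCAAT boxes, bound by NF-Y, and for the cell cycle homology region TTTGAA, bound by complexes with LIN54. The capitals mark both in Mki67 (chr7:135716330-135716629, minus strand), Cdc20 (chr4:118437294-118437593, minus strand) and Prc1 (chr7:80294201-80294500, plus strand).
Mki67: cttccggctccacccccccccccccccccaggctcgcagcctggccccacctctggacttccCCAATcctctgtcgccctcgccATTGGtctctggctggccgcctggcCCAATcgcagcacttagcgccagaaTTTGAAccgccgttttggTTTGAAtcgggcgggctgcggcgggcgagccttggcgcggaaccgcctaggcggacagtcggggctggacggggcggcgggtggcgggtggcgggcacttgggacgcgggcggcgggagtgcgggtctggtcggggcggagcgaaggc
Cdc20: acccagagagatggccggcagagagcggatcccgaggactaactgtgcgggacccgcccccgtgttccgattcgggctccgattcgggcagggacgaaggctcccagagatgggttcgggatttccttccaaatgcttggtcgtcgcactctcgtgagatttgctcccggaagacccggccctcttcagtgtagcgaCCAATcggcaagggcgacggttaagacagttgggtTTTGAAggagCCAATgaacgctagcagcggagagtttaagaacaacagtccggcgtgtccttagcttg
Prc1: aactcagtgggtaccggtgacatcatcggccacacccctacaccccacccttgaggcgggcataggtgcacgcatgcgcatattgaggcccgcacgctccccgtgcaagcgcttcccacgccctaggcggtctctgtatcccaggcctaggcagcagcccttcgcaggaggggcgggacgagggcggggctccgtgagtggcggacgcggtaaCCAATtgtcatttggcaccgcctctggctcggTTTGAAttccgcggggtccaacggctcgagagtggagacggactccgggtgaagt

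An E2F motif was found in 9 of the 26 replication genes with a RefSeq promoter, and in 1.80% of all 27025 genes with one. CCAAT stood in 22 of 30 mitosis genes (41.1% of all genes), TTTGAA in 22 of 30 (20.2%) and both in 19 of 30 (7.97%). The motifs TTTCCCGC, TTTGGCGC, CCAAT and TTTGAA were searched on both strands. A match to CCAAT or TTTGAA can share no more than an outermost letter with a match to another motif. Matches to TTTCCCGC and TTTGGCGC on opposite strands can share the letters GC. All 9 replication genes with the E2F motif were among the 23 with a promoter that were called higher, and the 2 measured mitosis genes with a promoter that were not called higher hold both CCAAT and TTTGAA. A match describes the letters of the window and is not a bound site.

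In DNA replication and nucleotide supply 26 of 31 genes rose and 2 fell (median 0.83). The helicase gene Mcm6 read 3.66, 3.32, 3.35, 2.80, 2.95 and 3.28 on arrays 1 to 6 (3.22 ± 0.10, adjusted p = 3.62e-10), and the other subunits of the same ring followed, Mcm4 (2.25), Mcm3 (2.12), Mcm2 (1.94), Mcm5 (1.71) and Mcm7 (1.69). Mcm10, which activates that ring, went the other way on every array, at -2.30, -2.22, -3.82, -2.98, -2.79 and -2.90 (-2.84 ± 0.20, adjusted p = 1.85e-08). It was measured by a single probe, which was saturated in the wild type on 3 arrays and in the knockout on 0. Whether this probe also reads other RNA was not tested. The nucleotide salvage gene Tk1 fell as well (-0.65).

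In mitosis and spindle assembly 32 of 34 genes rose and 0 fell (median 1.18, and 1.16 with the 6 dim genes at their bounds). The kinetochore motor Cenpe read 3.09, 2.95, 2.79, 1.59, 3.08 and 1.36 on arrays 1 to 6 (2.48 ± 0.24, adjusted p = 5.55e-07). Mki67 (3.05), the anaphase activator Cdc20 (2.35), the spindle midzone genes Kif20a (2.31) and Prc1 (1.99), the cyclin Ccna2 (2.30) and its kinase Cdk1 (0.84) rose.

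Among cyclins, inhibitors and E2F factors 19 of 26 rose and 2 fell. The cyclins of G1, Ccnd2 (1.84) and Ccnd1 (1.10), and their kinase Cdk6 (1.98) rose together with the inhibitor Cdkn1a (1.84). The repressor gene E2f8 had probes that disagreed. The brighter one read -4.61, -3.20, -2.74, -3.09, -3.87 and -3.01 on arrays 1 to 6 (-3.42 ± 0.21, adjusted p = 6.22e-09) and the other gave -0.05 ± 0.19 (adjusted p = 0.830). The pocket protein gene Rbl2 fell (-0.88). In DNA repair 15 of 23 rose and 2 fell. The nuclease Exo1 (1.63) and the crosslink repair gene Fanci (1.45) were among those that rose.

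Transcription factors that hold the hepatocyte programme were lower. Of 23 liver-enriched factors 3 rose and 13 fell (median -0.46). The fatty acid receptor Ppara (-1.71) and the xenobiotic receptor Nr1i3 (-1.97) fell, and the acute phase factor Cebpd (1.79) rose. The HNF4 motif CAAAGTCCA, searched on both strands, stood in the promoters of 3 of 187 hepatocyte enzyme genes and of 0.555% of all genes.

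Carbon and nitrogen metabolism of hepatocytes was lower in parts. In gluconeogenesis and glycogen metabolism 0 of 18 rose and 10 fell (median -0.51). The glycolytic regulator Pfkfb1 (-1.75), the glycogen targeting subunit Ppp1r3b (-1.58) and the glycogen synthase Gys2 (-0.91) fell. The gluconeogenic enzyme genes Pck1 (-0.17 ± 0.26, adjusted p = 0.602) and Fbp1 (-0.17 ± 0.29, adjusted p = 0.631) were not called. Both were saturated in wild type on 3 arrays and their ratios followed the dye, so a change could be missed. Of these 18 genes 10 were saturated in wild type on 3 or more arrays. In the urea cycle and ammonia list 0 of 13 rose and 5 fell, with the ammonia-fixing enzyme Glul (-1.55), the aspartate carrier Slc25a13 (-0.82) and Otc (-0.83) lower and Cps1 at -0.11 ± 0.27 (adjusted p = 0.751). Of these 13 genes 7 were saturated in wild type on 3 or more arrays.

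Of 35 genes of amino acid catabolism 0 rose and 17 fell (median -0.43). The members with the largest falls were those of tryptophan breakdown, Afmid (-1.40), Kmo (-1.26), Ido2 (-1.13) and Tdo2 (-1.12). The tyrosine enzyme Tat was at -0.39 ± 0.24 (adjusted p = 0.183). Of the list, 22 members were saturated in wild type on 3 or more arrays, and its medians on arrays 1 to 6 were -0.20, 0.24, -0.70, -0.81, -0.83 and -0.82, lower on arrays 4 to 6 than on arrays 1 to 3.

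One-carbon metabolism moved in both directions. Phgdh, which starts the synthesis of serine, read 3.09, 2.49, 1.85, 1.69, 3.34 and 2.14 on arrays 1 to 6 (2.43 ± 0.19, adjusted p = 3.95e-08), and its other probes gave 1.34 and 0.84. Cytosolic Shmt1, which turns serine into glycine, read -1.23, -1.10, -2.14, -1.79, -1.62 and -1.58 (-1.58 ± 0.14, adjusted p = 1.99e-07). Every array therefore had more RNA for making serine and less for this step of its use. The mitochondrial folate gene Mthfd1l (1.06) rose and Cth, the last step from methionine to cysteine, fell (-1.04). In all 8 of 22 rose and 7 fell, against 7 and 12 with the deposited series values, and the median of -0.32 became 0.04 with Agilent's log ratios.

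Conjugating enzymes were lower. Of 12 genes of glucuronidation 0 rose and 11 fell (median -1.11). Ugt2b1 (-3.00), the bilirubin enzyme Ugt1a1 (-2.22), Ugt1a9 (-1.90) and Ugt3a1 (-1.85) fell most. The Ugt1a forms share exons, so their probes may read several of them. Of 11 genes of sulfation, which include both sulfate donor synthases, 3 rose and 7 fell (median -0.70). Sult2a8 (-3.57), which sulfates bile acids in mouse liver, Sult5a1 (-3.11) and Sult1b1 (-1.82) fell and the oestrogen enzyme Sult1e1 rose (0.95). The liver form of the sulfate donor synthase, Papss2, fell (-1.45) and its other form, Papss1, rose (1.10).

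Glutathione transferases gave 6 rises and 7 falls in 21, with a median of -0.29 that became 0.25 with Agilent's log ratios. The theta forms Gstt3 (-1.89) and Gstt1 (-1.43) and Gstm4 (-1.20) fell, and Gstm5 (1.24) and Gsta2 (1.07) rose. Carboxylesterases, dehydrogenases and oxidases gave 7 rises and 12 falls in 32, with 8 and 7 with Agilent's log ratios. Ces1f (-2.89), Ces2c (-2.26) and Ces1e (-2.17) fell, and the carbonyl reductase Cbr3 (2.44), Aldh3b1 (1.59) and the retinoic acid enzyme Aldh1a2 (1.16) rose. These families hold near-identical copies, and values of single members are uncertain.

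Peroxisomes, where very long and branched fatty acids are shortened and bile acid side chains are cut, showed 23 falls and 0 rises in 34 genes (median -0.54). Hacl1, the lyase of branched fatty acid breakdown, read -3.46, -1.62, -2.10, -2.54, -2.03 and -2.92 on arrays 1 to 6 (-2.44 ± 0.20, adjusted p = 8.71e-08). Pex11a, which divides peroxisomes (-1.82), Nudt12 (-1.56), Ech1 (-0.96) and the import gene Pex2 (-0.61) fell, so both enzymes and biogenesis factors were lower.

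Lipid carriers and membrane lipids changed in some members. In the apolipoprotein list 3 of 29 rose and 10 fell, with a median of -0.38 that became 0.02 with Agilent's log ratios. Here 15 members were saturated in wild type on 3 or more arrays. Apoa4 (-1.81) fell, while lipoprotein lipase (Lpl, 2.62), made mainly outside adult hepatocytes, and Apobec1 (1.79) rose. In sphingolipid and phospholipid metabolism 13 of 29 rose and 10 fell, against 10 and 13 with the deposited series values. The acyltransferase Lpcat2 (2.96), the sphingosine kinase Sphk1 (2.74), Smpd3 (1.86) and the first enzyme's subunit Sptlc2 (1.48) rose. The phosphatidate phosphatase Lpin1 (-2.11) and the cholinephosphotransferase Chpt1 (-1.86), which makes phosphatidylcholine, fell.

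Receptor genes of growth hormone and prolactin were lower. The prolactin receptor Prlr read -2.32, -1.63, -2.53, -3.42, -2.31 and -2.62 on arrays 1 to 6 (-2.47 ± 0.16, adjusted p = 7.22e-09), the growth hormone receptor Ghr fell (-0.82 ± 0.19) and so did Igfals (-1.61), which keeps IGF1 in blood. Igfbp1 (1.78), Igf2 (1.55) and the feedback inhibitor Socs2 (1.55) rose, and in all 9 of 20 rose and 5 fell. Of 14 imprinted genes, many of which are active in fetal liver, 10 rose and 1 fell, with Plagl1 (2.53), Grb10 (2.27) and Sgce (1.94) highest.

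Serpins are mostly protease inhibitors, secreted in clade A and inside cells in clade B. Serpinb6b (3.46), Serpinb6a (2.83), Serpinb9 (2.20) and the collagen chaperone Serpinh1 (2.44) rose, whereas Serpina9 (-1.33) and Serpina12 (-0.93) fell. In all 9 of 29 rose and 4 fell, against 9 and 11 with the deposited series values, and the median of -0.09 became 0.27 with Agilent's log ratios.

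Genes of both ends of the liver lobule were lower. Of 20 pericentral genes 2 rose and 11 fell (median -0.80), and of 20 periportal genes 2 rose and 9 fell (median -0.53). Cyp1a2, a pericentral cytochrome P450, had one of the largest spreads between arrays, at -2.19, 0.85, -3.02, -1.29, -2.26 and -2.08 on arrays 1 to 6 (-1.66 ± 0.36, adjusted p = 0.00103). The pericentral genes Cyp2c37 (-2.17) and Cyp2e1 (-0.90) fell, and Nt5e (0.81) and Ahr (0.70) rose. Of the periportal genes Igfals (-1.61), Apoa4 (-1.81) and Sds (-0.72) fell, and Cdh1 (2.04) and Ctsc (0.51) rose.

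Genes of the circadian clock were lower in 14 of 19 cases and higher in 1 (median -0.60). The exception was Arntl, the activator at the core of the clock, which read 1.56, 1.21, 1.20, 0.99, 1.0 and 0.61 on arrays 1 to 6 (1.10 ± 0.21, adjusted p = 0.000405). The repressor gene Ciart read -2.42, -1.28, -1.63, -1.35, -1.93 and -1.68 (-1.71 ± 0.15, adjusted p = 1.3e-07). On every array the activator's RNA was above wild type and the repressor's below it. Hlf (-1.63) and Usp2 (-1.61), which carry the clock's output, fell, and Clock was at 0.22 ± 0.13 (adjusted p = 0.137). The hour at which each liver was taken is not given, so the part of sampling time was not tested.

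Metal and vitamin handling changed in single genes more than as groups. The deiodinase Dio1, a selenoenzyme that activates thyroid hormone, read -2.55, -2.55, -2.90, -1.68, -2.84 and -2.24 on arrays 1 to 6 (-2.46 ± 0.15, adjusted p = 5.58e-09). The zinc and iron importer Slc39a14 (-1.17) fell. Of the metallothioneins Mt2 was at 1.47 ± 0.18 and Mt1 at -0.82 ± 0.22. The other probe of Mt1 was not called (0.16 ± 0.11, adjusted p = 0.197), so the fall of Mt1 is uncertain. In the zinc, copper and selenium list 3 of 20 rose and 8 fell, against 3 and 1 after median centring, and its median of -0.26 became 0.14 with Agilent's log ratios. In iron and haem 4 of 27 rose and 8 fell, against 2 and 1 after median centring, and the median of -0.24 became 0.11 with Agilent's log ratios. The hepcidin copy Hamp2 (-1.32) and the last haem enzyme Fech (-1.14) fell, and Hamp was at -0.49 ± 0.26 (adjusted p = 0.117). In retinoid metabolism 7 of 21 rose and 8 fell, with 7 and 1 after median centring. The reductases Rdh11 (-1.58), Rdh16 (-1.36) and Dhrs4 (-1.30) fell.

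Amino acid transporters gave 10 rises and 7 falls in 24, and 10 and 10 with the deposited series values. The glutamine carrier Slc1a5 (1.44) of dividing cells and Slc7a8 (1.63) rose, and Slc1a2 (-2.89) and Slc3a1 (-2.41) fell. In the pentose phosphate and NADPH list 1 of 13 rose and 3 fell, against 1 and 0 after median centring. The entry enzyme G6pdx was the member that rose (1.76 ± 0.09, adjusted p = 1.36e-09).

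Many liver enzymes have a second form that other tissues use, and the measured forms differed in their ratios. Of 17 measured forms that were taken as the liver form 0 rose and 11 fell, with a median of -0.55. The branched-chain aminotransferase taken as such, which fell, is also used by other tissues. Of 17 other forms listed 10 were measured, of which 8 rose and 0 fell, with a median of 1.18. A form dim in wild type could pass the filter on dim probes through the knockout alone. The measured forms therefore lean towards rises, and these counts are no test. In all 10 pairs with both measured the other form had the higher ratio, by a median of 1.71, and in 5 the liver form fell while the other rose. The pyruvate kinases show this. Pklr, the form of hepatocytes, read -1.78, -1.76, -2.81, -3.10, -1.96 and -1.51 on arrays 1 to 6 (-2.15 ± 0.23, adjusted p = 1.38e-06), below wild type on every array, and Pkm, the form of most other cells, was at 0.91 ± 0.15 (adjusted p = 0.000114). The conjugate exporters Abcc2 (-0.63) and Abcc1 (1.62), the glycogen phosphorylases Pygl (-0.17 ± 0.20, adjusted p = 0.487) and Pygb (1.52), and the phosphofructokinases Pfkl (-0.18 ± 0.14, adjusted p = 0.303) and Pfkp (1.26) also had the higher ratio in the second form of each pair. Several liver forms were saturated in wild type on 3 arrays, among them Pygl and Fbp1. The shares of cell types in these values were not tested.

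**Figure D5:**
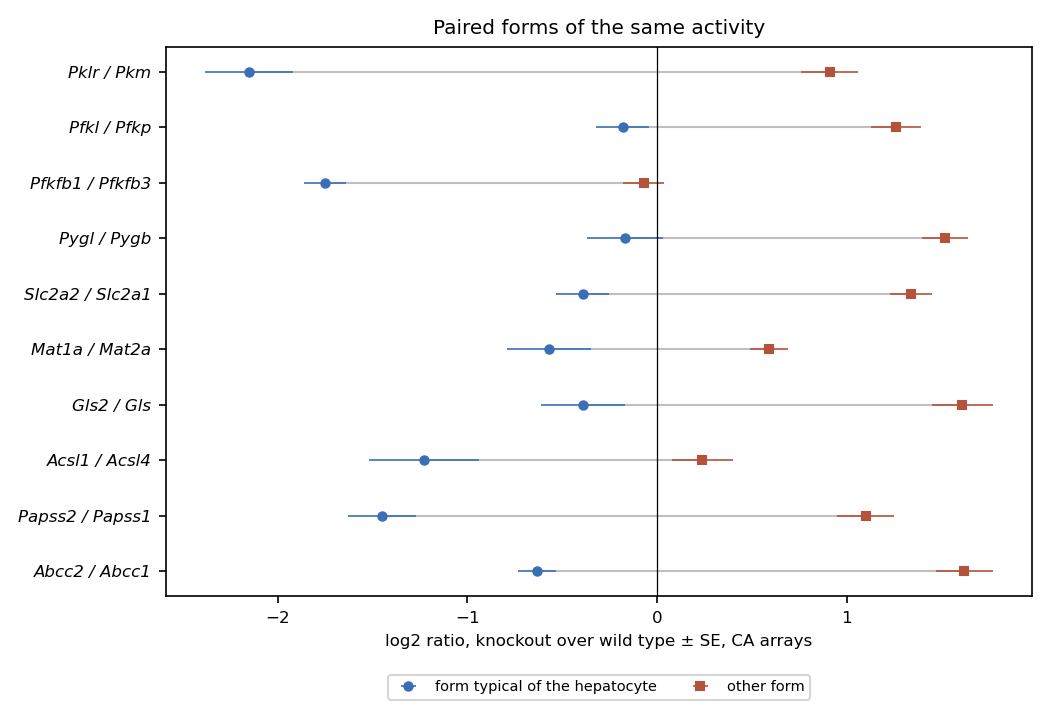
Log2 ratio of knockout over wild type on the CA arrays (horizontal axis, bars are standard errors) for the 10 pairs with both forms measured, circles for the form typical of the hepatocyte and squares for the other form. The square lies to the right of the circle in all 10 pairs, and in 5 the circle was called lower and the square higher.

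The 6 arrays did not spread evenly for all genes. After removal of the dye effect the genes with the largest standard deviation included Sycn, Cela1, Cel and Ctrb1 of the pancreas. The ribonuclease gene Rnase1 and the kallikrein genes Klk1, Klk1b3 and Klk1b5 were also among them. Rnase1 read 1.21, 1.42, -2.46, -2.10, 1.47 and 0.53 on arrays 1 to 6 and Klk1 read 0.82, 1.28, -2.25, -2.37, 0.15 and 0.16. All 4 were below wild type on arrays 3 and 4, above it on the others, and not called (adjusted p = 0.985, 0.414, 0.516 and 0.426). The kallikrein genes are close copies, so their probes may read more than one of them. Without arrays 3 and 4 they were called higher, Rnase1 at 1.16, Klk1 at 0.60, Klk1b3 at 0.66 and Klk1b5 at 0.67. Acot3, a peroxisomal thioesterase of the fatty acid response, read -3.20, 0.44, -3.03, -3.44, -2.10 and -1.41 on arrays 1 to 6 (-2.12 ± 0.39, adjusted p = 0.000247), below wild type on 5 of 6 arrays by very different amounts. Different probes of a gene disagreed in some cases. Of the called genes named here that had other tested probes, all of these were called in the same direction for 94 genes, and for 10 another probe was not called, namely for Acta2, Cdk6, Ces2c, Dsg2, E2f8, Ghr, Itga3, Mt1, Notch2 and Wipi2. The 3 with a probe called in the opposite direction were given above with its value.

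The CA-fed livers differed from the UDCA-fed livers, each set against wild type on its own arrays. This contrast is indirect, and the labels do not say whether the wild-type livers were shared. Of all genes 2485 were higher in the CA minus UDCA difference (20.1%) and 1135 lower (9.17%). Integrins and laminins were higher in 17 of 23 cases, phagocyte receptors in 16 of 22, actin cytoskeleton genes in 15 of 27 and DNA replication genes in 18 of 31. Mitosis genes were higher in 3 of 34, with a median ratio to wild type of 1.18 with CA and 0.82 with UDCA. Genes of glucuronidation were lower in 8 of 12 cases, glutathione transferases in 10 of 21, peroxisomal genes in 14 of 34 and Kupffer cell markers in 5 of 11. With the slide as a fixed block, 1058 genes were higher and 389 lower in this difference, and after median centring 509 and 59.

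A small set of 95 genes was called in opposite directions in the diets with a called difference, 38 higher with CA and lower with UDCA and 57 the reverse. The ones at least 2-fold in both were Cyp2b9 and Cyp2b13, cytochrome P450 genes of a family known for its response to drugs, which were chosen after their values were seen. Cyp2b9 was at -2.23 ± 0.34 with CA and 2.42 with UDCA (difference -4.65, adjusted p = 2.63e-05). Cyp2b13 was at -1.34 ± 0.21 with CA and 2.30 with UDCA (difference -3.64, adjusted p = 6.75e-06). Both were lower than wild type on 6 of 6 CA arrays, and their sequences are similar enough that probes may read more than one Cyp2b gene. The Kupffer cell marker Cd5l (-2.19 with CA and 0.58 with UDCA), Gstm4 (-1.20 and 0.88), the exporter Abcc2 (-0.63 and 0.63) and the cathepsin Ctsc (0.51 and -0.86) were also called in opposite directions.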

How the data were processed

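RNA of 12 arrays was analysed, and the text describes the 6 with CA-fed knockout livers. Feature Extraction 9.5.3 was used for the scans, per the labels. The authors deposited its output, which gives for either dye a spot's mean intensity and the median of the background around it, neither of them normalized, per the file headers. They also give, per the file headers, the log10 ratio of red over green that the same program computed after background subtraction and dye normalization. The deposited series values are log2 ratios, 1 per probe and array, whose scale and centring no source states. On the CA arrays they ran as wild type over knockout, and their sign was turned.

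The background was corrected with normexp at an offset of 50, and loess was applied within arrays, using R 4.3.3 with limma 3.58.1 and the data.table package (version 1.17.8). Of 45018 spots 1639 were controls, and the others gave 41174 probes. Spots flagged as outliers were set to missing, 1.17% of the CA values. Probes had to be well above background on at least 5 of 6 arrays in either RNA of either diet, which left 21693 probes, 21691 of them testable. They held 15375 names, 12384 of them current symbols, and a gene was represented by its brightest probe. For some genes not called by that probe a dimmer probe was lower, and for others the dimmer probe read much the same. A bright gene without a call is therefore not shown to be unchanged. With the median over a gene's probes instead, 4728 genes were higher and 3104 lower. The limma fit took both diets together, with a dye term for each probe (9 residual and 5.95 prior degrees of freedom). The code was tested on simulated data. The labels say that the livers came from different mice, and p-values measure the spread between these samples.

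The comparison, the 76 gene lists (1611 genes, 1406 measured) and the enzyme pairs were chosen with earlier results of these data known. Genes were named by rule: from each list the 4 largest calls of one sign on all arrays, the 2 largest calls against the list's majority and the first 2 measured; the enzyme pairs; ranks 11 to 30 in each direction; Abcb4; whole families; and the 10 genes with the largest spread. Some genes that the rule names, and the enzyme pairs that hold them, are not reported here. Alternatives were other background correction and normalization, the deposited series values, other filters, CA arrays alone, no dye effect, the slide or the replicate number as a block, possible swap pairs averaged, the median over probes, and arrays left out. Leaving out arrays 3 and 4 together was chosen after seeing the data. Promoters came from RefSeq on GRCm38.p6.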

Additional observations from a re-analysis of the deposited data

Results flagged for a closer look

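Within the 6 CA arrays, the highest or lowest value of 72 gene list medians and 42 single genes was compared with the others by its gap. This marked 2 lists and 1 gene, and chance marks about 1 in 20 such groups. The median of the Wnt pathway genes was 0.26 on array 5, where arrays 1 to 6 gave 0.01, -0.04, -0.08, -0.11, 0.26 and 0.00 in order. The median of the DNA repair genes was 0.94 on array 1, where all arrays gave 0.94, 0.57, 0.40, 0.39, 0.40 and 0.39. The log2 ratio of Sult5a1 was -3.42 on array 1, where all arrays gave -3.42, -3.09, -3.07, -3.06, -2.99 and -3.02.

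The CA and UDCA groups differed in the limma test of the difference itself, with adjusted p under 0.05, for 2485 genes that were higher with CA and 1135 that were lower. Of these, 95 genes were called in opposite directions against wild type in the diets. Among genes named in the text the differences were -4.65 for Cyp2b9, -3.64 for Cyp2b13, -2.77 for Cd5l, -2.08 for Gstm4, -1.25 for Abcc2 and 1.38 for Ctsc. Cyp2b9 and Cyp2b13 had one sign on 6 of 6 CA arrays. The wild-type samples were measured separately in each diet group, and CA arrays 1 to 4 lay on slides without UDCA arrays.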

How the results depend on the processing

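Of 379 genes named in the text 78 lost their call after median centring, 9 without arrays 3 and 4 and 7 with Agilent's log ratios. No gene called and named in the text reversed its direction under the alternatives run. Klk1, Klk1b3 and Klk1b5, which had negative fitted ratios and were not called, were called higher without arrays 3 and 4, at 0.60, 0.66 and 0.67. The saturated genes Ahsg and Trf, likewise negative in the fit and not called, were called higher with the deposited series values, at 0.73 and 0.57. The 4908 genes higher and 2744 lower became 4482 and 3009 with Agilent's log ratios and 4626 and 3772 with the deposited series values. With each array centred on its median they became 3363 and 523, the share of rises going from 64.1% to 86.5% and the median of all genes from 0.12 to 0.34. Leaving out each array in turn gave 4565 to 4807 higher and 2387 to 2643 lower. The CA minus UDCA difference of 2485 higher and 1135 lower was 509 and 59 after median centring, 1058 and 389 with the slide as a fixed block, and had 1882 lower with the deposited series values. Leaving out CA arrays in turn it held 2045 to 2487 higher and 905 to 1140 lower. The cause of these shifts was not tested, except that a fixed slide block takes the difference from slides 3 and 4 alone, which hold both diets. With the replicate number as a block 4709 genes were higher and 2632 lower, and 2093 and 913 in the difference, and the numbers name arrays only. Without arrays 3 and 4 the difference held 2423 higher and 962 lower. Saturation limits the bright hepatocyte genes, and dim wild-type signal limits 377 genes to a bound.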
